A study of Mus musculus with 20 samples.

Results

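Cornea macrophages are described here well by well: 121 single cells from the unlesioned cornea of C57BL/6 mice aged 8 weeks, each of which the authors had named a macrophage and given a cluster. They were taken as every annotated cornea well with that name, 121 of 429 wells in the annotation of unlesioned eye cells and of 3840 wells in the series. The cells lay in 4 libraries of 192 wells, 28 in P5 A, 37 in P5 B, 6 in P2 A and 50 in P2 B, where P5 and P2 are prefixes of the library names whose meaning the labels do not give. The cells set against them were 111 ciliary body macrophages (libraries P3 and P4) and microglia of the control retina (33 wells of P1 and 86 of P2), from unlesioned mice of the same strain and age. All cells were stained for CD45 and CD11b. CD45 is the common surface protein of leukocytes, microglia and resident macrophages among them. Every CD45+ cell was sorted into a 384-well plate and sequenced by mCEL-Seq2. The method counts 1 tag near the 3′ end of each transcript by its molecular identifier. The study drew on about 6 mice over 3 experiments, without a label that ties a library to a mouse.

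The cornea is the clear, normally vessel-free front of the eye, covered by a layered epithelium that is marked by the keratin Krt12. Resident macrophages lie in its stroma, and cells with long processes lie in and under the epithelium, where the lectin Cd207 (langerin) marks Langerhans cells. Macrophages present antigen on MHC class II molecules, clear debris, and on activation release cytokines, chemokines and matrix-cutting enzymes such as Mmp13, a collagenase.

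The cornea macrophages held a median of 2718 transcripts a well, from 1051 to 19010, and 205938 transcripts in all in P5 and 201543 in P2. The ciliary body macrophages were deeper, with medians of 7078 in P3 and 4999 in P4. The median share of mitochondrial transcripts in the cornea wells was 8.41% in P5 and 11.6% in P2. The defining genes of macrophages were present in most wells: the growth factor receptor Csf1r was found in 105 of 121 wells, the complement gene C1qb in 112 and the protease gene Ctss in 118. Of 17 pan-macrophage genes, 16 were in the table and all 16 were detected. The T cell genes Cd3d, Cd3e, Cd3g and Trac, the B cell genes Cd79a and Cd79b, and the neutrophil genes Ly6g, Camp, Ngp and Ltf were at 0 in all 121 wells. Other members of these lists were found, 12 of 17 T cell and NK cell genes, 4 of 7 B cell genes and 6 of 11 neutrophil genes, in 43, 50 and 44 wells, at no more than 0.471% of a well for any of the 3 lists.

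Epithelial transcripts were present in every cornea macrophage. Krt12 was found in 121 of 121 cornea wells (100%), against 44 of 111 ciliary body wells (39.6%), all of them in P4. Among microglia it was found in 39 of 86 wells in P2 (45.3%) and in none of 33 in P1. The 32 measured genes of the corneal epithelium list made up a median of 2.61% of a well in P5 (0.971% to 9.29%) and 2.72% in P2 (0.860% to 5.42%), against medians of 0% in P3 and 0.074% in P4 of the ciliary body. At least 1% of the transcripts came from this list in 118 of 121 cornea wells, against 7 of 111 ciliary body wells and 7 of 86 microglia in P2 and none of 33 in P1. The 2 tissues overlapped in a few wells only, and no cornea well was free of these transcripts. To say for each gene how much of its level could be of this kind, the profile of unannotated cornea wells rich in Krt12 (185 in P5, 106 in P2) was scaled to the Krt12 level of the macrophages, and the result is given below as the epithelial share. The share is 100% for Krt12 by construction and can exceed 100% for other genes. Whether the transcripts were free RNA, came from another cell in the same well, were taken up by the macrophages or were made in them was not tested.

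**Figure D1:**
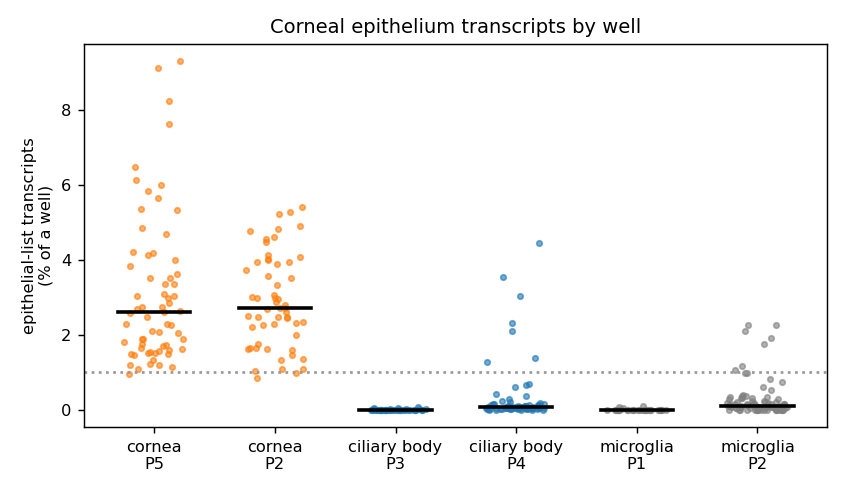
Share of each well's transcripts that came from the corneal epithelium list (percent, vertical axis), 1 point per well, with a bar at the median of each library prefix and a dotted line at 1 percent. Cornea macrophages, on the left, sit around 2.61% (P5) and 2.72% (P2), and most ciliary body macrophages and microglia sit near 0.

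Of the genes in the deposited table of annotated eye cells, those of antigen presentation had the highest levels in cornea macrophages. That table lacks the mitochondrial genes and the unnamed gene Gm10800, which made up a median of 12.3% of a cornea well in P5 and 8.74% in P2 of the library tables, against 8.65% in P3 and 16.4% in P4 of the ciliary body. Levels are given as summed transcripts scaled to a total of 1000000 (CPM), which in a 3′ tag assay are not divided by gene length. H2-Aa, the alpha chain of the class II molecule I-A, ranked first, with 14503 CPM in P5 A, 15159 in P5 B, 14423 in P2 A and 18249 in P2 B. H2-Eb1, a class II beta chain, followed with 12569 CPM in P5 and 14852 in P2, and Cd74, the invariant chain that escorts class II molecules, with 15397 in P5 and 10874 in P2. H2-Ab1 had 10893 CPM in P5 and 10369 in P2. All 4 libraries thus held class II transcripts at about 1% of all transcripts per gene, and the epithelial share of H2-Aa was 1.40%.

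Among the 20 genes with the highest levels, leaving out mitochondrial and ribosomal protein genes, were 6 whose epithelial share was over 50%. These were the keratins Krt12 (8679 CPM in P5, 8929 in P2), Krt5 (6212 in P5, 3058 in P2) and Krt6a (4058 in P5, 5147 in P2), the corneal crystallin Aldh3a1 (9555 in P5, 5999 in P2), Gsto1 and the unnamed gene Gm42418. Their levels are therefore given with their epithelial shares, 100%, 91.9%, 94.7% and 63.7% for the first 4. Gm42418 had 19230 CPM in microglia of P1 and 12536 CPM in ciliary body macrophages of P3, in neither of which Krt12 was found. Its share of 99.8% therefore cannot say where its transcripts came from. Apoe, which carries lipids between cells, was a gene of the macrophages by this measure, with a share of 1.88%. Its level was 7462 CPM in P5 A, 8222 in P5 B, 1745 in P2 A and 12248 in P2 B, so the library of 6 wells lay apart from the others. Cxcl2, a chemokine that draws neutrophils, had 7881 CPM in P5 and 5643 in P2, also with a share under 2%.

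The other markers of these cells lay far below H2-Aa. Mrc1, the mannose receptor, had 333 CPM in P5 A, 328 in P5 B, 167 in P2 A and 464 in P2 B. Ccr2, the chemokine receptor of monocytes and their descendants, had 311, 390, 262 and 408 CPM in the same order of libraries. Ms4a7, a membrane protein of macrophages outside the nervous tissue proper, had 268, 177.4, 310 and 295 CPM. These 3 genes varied by less than 3-fold between libraries. Cd207 had 355 CPM in P5 A, 365 in P5 B, 716 in P2 A and 112.9 in P2 B, and Mmp13 had 258, 347, 1100 and 132 CPM in that order. Both were highest in P2 A and lowest in P2 B, the 2 libraries of the same prefix. Of the 6 wells of P2 A, 1 well of 19010 transcripts held 27 of Cd207 and 39 of Mmp13. The P2 A levels of both genes therefore rest largely on that well.

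Measured after thinning each well to 1000 transcripts, H2-Aa was found in 94.2% of the 121 wells (Wilson 95% interval 88.5% to 97.2%), Mrc1 in 28.9% (21.6% to 37.6%), Ms4a7 and Ccr2 in 21.5% each (15.1% to 29.6%), Mmp13 in 14.0% (8.96% to 21.4%) and Cd207 in 8.26% (4.55% to 14.5%). The intervals cover counting error only. In retinal microglia, which should lack most of these genes, the same thinning found H2-Aa in 36.1% of wells, Cd207 in 0.84%, and Mrc1, Ms4a7, Ccr2 and Mmp13 in none, where 3 counts of the total would be a share of 2.52% of wells with a transcript (the Wilson interval reaches 3.13%). Median depth was 2718 transcripts in cornea macrophages and 1596 in microglia. Without thinning, the shares in cornea macrophages were 97.5% for H2-Aa, 42.1% for Mrc1, 41.3% for Ms4a7, 36.4% for Ccr2, 23.1% for Mmp13 and 12.4% for Cd207. Several genes that mark border macrophages elsewhere were at 0 or were not used here, among them Lyve1, Timd4 and Folr2, and F13a1 had 1 transcript in the 121 wells. Of the 17 border macrophage genes in the table, 14 were detected, Mrc1 and Ms4a7 among them. After thinning, Cbr2 was found in 59 wells, Sepp1 in 45 and Pf4 in 26, with epithelial shares of 50.7%, 2.92% and 1.85% in that order.

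The authors' clusters divided the cornea macrophages into 9 groups: 34 wells in cluster 2, 33 in cluster 3, 13 in cluster 8, 12 in cluster 6, 10 in cluster 9, 8 in cluster 7, 7 in cluster 16, 3 in cluster 10 and 1 in cluster 1. The clusters were made from these same values, so the differences between them are described without a test. They differed in Apoe, class II, inflammatory and epithelial genes. Of the variance between wells thinned to 1000 transcripts, the clusters took up 75.3% for Apoe, 61.2% for H2-Aa, 54.3% for Cxcl2, 34.1% for Il1b, 35.6% for the epithelial gene Aldh3a1 and 33.1% for Krt5, against a median of 7.28% over 766 genes.

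Cluster 3 held much class II and little Apoe. The smaller cluster 16 did so too, with medians of 17842 CPM of H2-Aa and 1430 CPM of Apoe. Its wells held H2-Aa at a median of 26756 CPM (16028 to 42673) and Apoe at a median of 662 CPM (0 to 12616). H2-Aa was about the same in both prefixes, 25861 CPM in P5 and 26490 in P2. Its leading genes were the lectin Cd209a, 542 CPM against 17.1 in the other cornea wells, and the chemokines Ccl17, 262 against 3.42, and Ccl22, 297 against 13.7, all of which dendritic cells also express. Cd209a was found in 15 of the 33 wells and Ccl17 in 8. Mgl2, another lectin of macrophages and dendritic cells, had 1706 CPM in the cluster against 390 elsewhere. Ccr2 had its highest level among the clusters of 10 or more wells here, 568 CPM, and Mrc1 its lowest, 175 CPM. The epithelial list made up a median of 1.72% of its wells.

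Cluster 8 held class II and Apoe together. Apoe had a median of 35668 CPM in its 13 wells (13109 to 53181) and H2-Aa one of 25000.4 CPM (7535 to 49681). Every well of the cluster held more Apoe than the highest well of cluster 3. Mrc1 had 886 CPM and Ms4a7 620, the highest of the clusters of 10 or more wells, and Csf1r had 2808. Stab1, a scavenger receptor of border macrophages, had 325 CPM against 48.2 in other cornea wells, although 72.7% of it lay in 1 well. The chemokine Ccl12 led by ratio too, but 94.3% of its transcripts lay in 1 well, and reads of Ccl12 and its neighbour Ccl2 may not be told apart. Of the 13 wells, 3 were in P5 and 10 in P2.

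Cluster 7, of 8 wells, had the most Apoe, with a median of 45375 CPM (19022 to 61277), and little class II, with a median of 3268 CPM of H2-Aa (0 to 9472). Ccr2 was at 0 in all 8 wells and Csf1r was at 2624 CPM. Its 10 leading genes by ratio included Gpnmb (place 1) and the pigment cell genes Dct (4), Tyrp1 (5) and Mlana (9). In the cluster these genes came from 1 well of P2 B, which held 10, 11, 5 and 4 of them in 3496 transcripts. That well also held 8 transcripts of Csf1r and 150 of Apoe. The other 7 wells held no transcript of Gpnmb, Dct, Tyrp1 or Mlana. Serpina3n, Mgll and Slc4a4, also among the 10, were each found in 1 well only.

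Cluster 9 had high levels of chemokine and cytokine genes and low ones of class II. In its 10 wells Cxcl2 had a median of 18641 CPM (1764 to 39821) and Tnf one of 5995 CPM (1645 to 11498), while H2-Aa had a median of 2357 CPM (0 to 6341). Of the 10 wells, 8 were in P5 and 2 in P2. Cxcl2 was at 20894 CPM in the wells of P5 and 19332 in those of P2. In P2, 1 well held 102 transcripts of Cxcl2 and the other 4, so the P2 value rests on 1 well. The leading gene was Rcan1, an inhibitor of calcineurin, with 1098 CPM against 57.7 in the other cornea wells, found in 7 of 10 wells. Pdgfa, a growth factor, had 492 CPM against 81.4, and Cited2, a transcriptional regulator that restrains inflammatory genes in macrophages, 947 against 178. Ccl2 was at 2501 CPM, 3110 in P5 and 182 in P2.

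Cluster 2, the largest, lay between these. H2-Aa had a median of 13468 CPM, Apoe one of 5574 and Cxcl2 one of 6928. Its leading genes by ratio, headed by Ptgds at 289 CPM against 31.9, included Gm42418, the photoreceptor gene Gngt1, the stromal gene Dcn and the epithelial genes Tmprss11a and Adh7. Of Ptgds, 66.7% lay in 1 well. Of its 34 wells, 13 were in P5 and 21 in P2.

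Cluster 6 was the cluster richest in epithelial transcripts. The epithelial list made up a median of 5.83% of its 12 wells, against 2.70% over all cornea macrophages, and Krt12 had a median of 14532 CPM (7198 to 28563). Of the 12 wells, 10 were in P5 and 2 in P2. Krt14, a keratin of basal epithelium, had 1136 CPM in the cluster against 57.1 elsewhere, with a share of 52.0%. It was found in 6 of the 12 wells, and 57.0% of its transcripts in the cluster lay in 1 well. The genes with the highest ratios there, Mcpt4, Cma1, Tpsb2 and Cpa3, are proteases of mast cells and lay in 1 well of P5 B. That well held 182 mast cell transcripts of 1301 (14.0%), with 55 of Mcpt4, 40 of Tpsb2, 38 of Cma1 and 35 of Cpa3, and 0 of Csf1r, C1qb and Cd74. The other 120 wells held 5 transcripts of these 4 genes in all, and the well was named a macrophage in the deposited annotation.

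**Figure D2:**
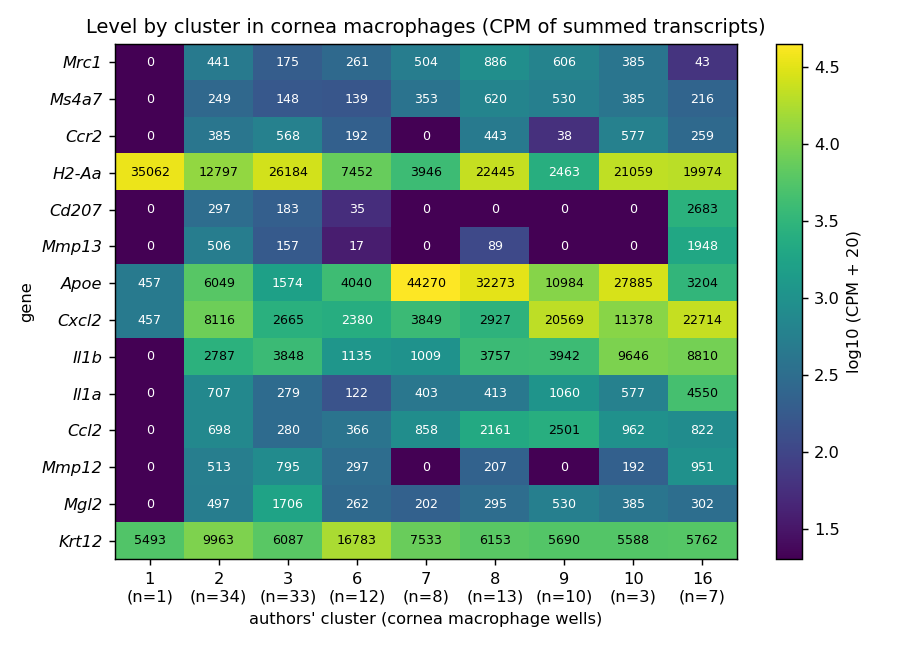
Level of 14 genes (rows) in the 9 clusters of cornea macrophages (columns, with their numbers of wells), as CPM of the summed transcripts printed in each cell and coloured by log10 (CPM + 20). Apoe is highest in clusters 7 and 8, Cxcl2 in clusters 9 and 16, and Cd207 and Mmp13 in cluster 16.

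Cluster 16 held the Cd207 cells with the most inflammatory transcripts. All 7 wells were in P5, 3 in P5 A and 4 in P5 B. Its 4 leading genes were Cd207, with 2683 CPM against 156 in the other cornea wells, Il1a, which encodes interleukin-1 alpha, with 4550 against 469, the neutrophil chemokine Cxcl1, with 4030 against 464, and Mmp13, with 1948 against 222. Cd207 was found in 4 of the 7 wells, Mmp13 in 5, Cxcl1 in 5 and Il1a in 6. The highest well for each gene held 62.3% of the cluster's Mmp13, 43.6% of its Cd207, 39.8% of its Cxcl1 and 31.4% of its Il1a. Cxcl2 had a median of 21874 CPM (13400 to 43431), as high as in cluster 9, and H2-Aa one of 17842 CPM (12033 to 40783). The lowest H2-Aa well of cluster 16 therefore held more than the highest of cluster 9. Mrc1 was found in 1 well of the 7.

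Because these genes led the cluster together, the stretch from 250 bases before to 50 bases after the start of each is shown, with Cxcl2 for comparison with its neighbour Cxcl1, from RefSeq on GRCm38.p6. They lie at chr6:83677808-83678107 on the minus strand (Cd207), chr9:7272264-7272563 on the plus strand (Mmp13), chr2:129309923-129310222 on the minus strand (Il1a), chr5:90890995-90891294 on the plus strand (Cxcl1) and chr5:90903649-90903948 on the plus strand (Cxcl2). Capitals mark matches, on either strand, to the AP-1 motif TGANTCA and the PU.1 core GAGGAA. Matches to the NF-kB motif and the TATA box TATAAA were sought and marked only on the strand shown.
Cd207: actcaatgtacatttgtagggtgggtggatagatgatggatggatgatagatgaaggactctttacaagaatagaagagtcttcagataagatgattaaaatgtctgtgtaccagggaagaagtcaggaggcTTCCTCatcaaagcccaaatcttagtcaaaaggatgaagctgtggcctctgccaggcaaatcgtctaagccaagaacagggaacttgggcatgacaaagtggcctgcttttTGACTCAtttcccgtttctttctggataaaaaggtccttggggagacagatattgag
Mmp13: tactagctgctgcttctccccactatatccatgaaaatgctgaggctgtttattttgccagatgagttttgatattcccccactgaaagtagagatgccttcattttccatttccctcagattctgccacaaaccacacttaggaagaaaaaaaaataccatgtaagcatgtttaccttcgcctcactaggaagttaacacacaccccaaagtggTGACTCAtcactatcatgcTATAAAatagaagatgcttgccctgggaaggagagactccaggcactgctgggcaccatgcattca
Il1a: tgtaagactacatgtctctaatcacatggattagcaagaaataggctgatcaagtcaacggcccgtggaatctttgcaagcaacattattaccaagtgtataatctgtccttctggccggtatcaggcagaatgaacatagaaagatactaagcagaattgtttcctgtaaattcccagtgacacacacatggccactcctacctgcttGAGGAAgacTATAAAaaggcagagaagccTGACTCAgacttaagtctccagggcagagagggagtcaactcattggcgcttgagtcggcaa
Cxcl1: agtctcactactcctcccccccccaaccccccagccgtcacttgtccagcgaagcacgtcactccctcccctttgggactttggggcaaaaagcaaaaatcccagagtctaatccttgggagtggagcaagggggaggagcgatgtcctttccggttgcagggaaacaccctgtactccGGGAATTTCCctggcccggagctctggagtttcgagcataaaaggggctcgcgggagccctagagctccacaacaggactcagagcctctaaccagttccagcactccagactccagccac
Cxcl2: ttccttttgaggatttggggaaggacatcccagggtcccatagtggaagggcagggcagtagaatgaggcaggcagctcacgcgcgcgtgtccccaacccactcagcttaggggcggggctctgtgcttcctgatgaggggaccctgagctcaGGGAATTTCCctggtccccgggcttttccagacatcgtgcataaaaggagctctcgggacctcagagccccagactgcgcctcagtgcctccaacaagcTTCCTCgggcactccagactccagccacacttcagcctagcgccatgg

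TGANTCA was found once each in Cd207, Mmp13 and Il1a, and stands in 7.81% of 32851 promoters of this length. The NF-kB motif was found once each in Cxcl1 and Cxcl2, against 5.89% of promoters. GAGGAA was found in Cd207, Il1a and Cxcl2, and stands in 28.3% of promoters. TATAAA was found in Mmp13 and Il1a, against 8.32%. A match is a stretch of letters and not a measured site.

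Most wells with Cd207 also held Mmp13. Cd207 was found in 15 of the 121 wells, 5 in P5 A, 4 in P5 B, 2 in P2 A and 4 in P2 B, and these lay in clusters 2 (5 wells), 3 (5), 16 (4) and 6 (1). Mmp13 was found in 14 of the 15 (93.3%, interval 70.2% to 98.8%) and in 14 of the 106 wells without Cd207 (13.2%, 8.03% to 21.0%). Mmp12, the macrophage elastase, was also found in 14 of the 15 wells (93.3%), against 24 of 106 (22.6%). The integrin Itgax (CD11c) was found in 11 of 15 (73.3%), against 28 of 106 (26.4%). The shares of all 3 genes were higher in the wells with Cd207, in which the median depth was also higher, 4425 transcripts against 2497. After thinning to 1000 transcripts Cd207 was found in 10 wells, Mmp12 in 9 of them and Mmp13 in 5.

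Of the other macrophage genes, Mrc1, Ccr2 and Cd209a had lower shares in the wells with Cd207, and Ms4a7 and C1qa had higher ones before thinning. Mrc1 was found in 2 of the 15 wells (13.3%), against 49 of 106 without Cd207 (46.2%), and Ccr2 in 2 of 15, against 42 of 106 (39.6%). Cd209a was found in none of the 15, against 20 of 106 (18.9%). These 3 shares were lower in the deeper wells. Ms4a7 was found in 9 of 15 wells (60.0%), against 41 of 106 (38.7%), and C1qa in 12 of 15 (80.0%), against 63 of 106 (59.4%). Csf1r was found in 11 of 15 (73.3%), against 94 of 106 (88.7%), Mgl2 in 8 of 15 (53.3%), against 48 of 106 (45.3%), and Apoe in all 15, against 98 of 106 (92.5%). Epcam, an adhesion gene that Langerhans cells and epithelium share, was found in 2 of 15 wells (13.3%), against 3 of 106 (2.83%). H2-Aa was found in all 15. Single wells carried much of both genes: 1 well of P2 A, with 19010 transcripts, held 22.2% of all Cd207 and 30.1% of all Mmp13 in the 121 wells. The genes set beside Cd207 were chosen after values were seen, wells of 1 library are not replicates, and no test was made. In the ciliary body Cd207 was found in 3 of 111 macrophages and Mmp13 in 17, and no well held both.

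**Figure D3:**
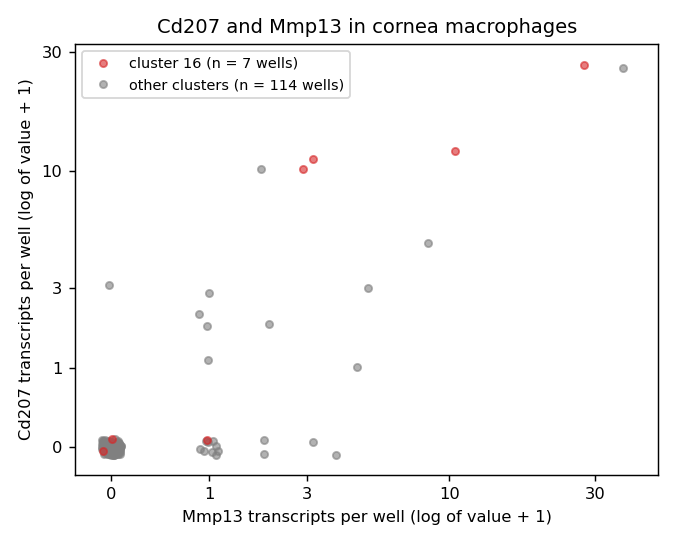
Mmp13 transcripts (horizontal) against Cd207 transcripts (vertical) in each of the 121 cornea macrophages, both on a logarithmic scale of the value plus 1 with points spread slightly so that equal values can be seen. Wells with Cd207 lie to the right of 0 on the Mmp13 axis in 14 of 15 cases, and cluster 16 holds 4 of the 15.

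Ccr2 divided the cells another way. Mrc1 was found in 28 of the 44 wells with Ccr2 (63.6%), against 23 of 77 without it (29.9%), so the 2 genes were not alternatives in these cells. Ms4a7 was found in 10 of 44 wells with Ccr2 (22.7%), against 40 of 77 without (51.9%). Cd209a was found in 13 of 44 (29.5%), against 7 of 77 (9.09%). After thinning, Mrc1 was found in 7 of 26 wells with Ccr2, against 28 of 95 without, so its excess was not seen at equal depth.

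Well-to-well variation in cornea macrophages was greatest in genes of activation. It was measured as overdispersion, the variance beyond that of counting divided by the squared mean, in 766 genes with a mean of at least 0.2 transcripts a well after thinning to 1000. The median was 0.319, and 124 genes reached 1. Of 13 measured genes of inflammatory cytokines and chemokines 9 reached 1, of 20 immediate early and stress genes 8, of 9 MHC class II genes 0 and of 16 lysosomal genes 0. Genes of 50% or more epithelial share reached 1 in 9 of 64 cases, against 115 of 702 other genes, and their medians were 0.341 and 0.316 in that order. H2-Aa had a value of 0.438, above the median of all 766 genes and under 1.

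The 4 highest values were those of Mcpt4 (118), Cma1 (117), Cpa3 (117) and Tpsb2 (102), the mast cell genes of the single well in cluster 6. Among the next were the unnamed gene Gm10116 (7.60), the nuclear receptor Nr4a2 (6.12), Crip1 (6.06), Cxcl1 (5.24), Mgl2 (4.30), Tnip3 (4.25), an inhibitor of NF-kB signalling, and Nfkbid (3.52), a nuclear member of the IkB family. Muc4, a mucin with an epithelial share over 100%, had 3.39, S100a4 3.24, Gm6377 3.07, Hexim1 3.05, Ftl1 3.04, Gnaq 3.0, Mmp12 2.92 and Ccl2 2.92. Cxcl1 was found in 24 thinned wells, Mgl2 in 31 and Ccl2 in 41. Most of these genes have means under 1 transcript a well, where the ranking depends on few wells and on depth, and 6 of the 20 were among the first 20 when wells were thinned to 500.

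Among the 130 genes with a mean of at least 1 transcript, a limit set after values were seen, 16 reached 1 and the median was 0.337. These included the heat shock gene Hspa1a (1.95), the chemokines Ccl4 (1.61), Cxcl2 (1.44) and Ccl3 (1.30), Apoe (1.52), Tnf (1.50), the lysozyme gene Lyz1 (1.48), the immediate early genes Fos (1.40), Atf3 (1.31), Egr1 (1.14) and Fosb (1.05), and Il1b (1.02). Ccl4 was found in 78 of the 121 thinned wells, Tnf in 78 and Il1b in 80. The mean of Il1b per thinned well was about the same in the prefixes, 3.49 transcripts in P5 and 3.50 in P2.

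**Figure D4:**
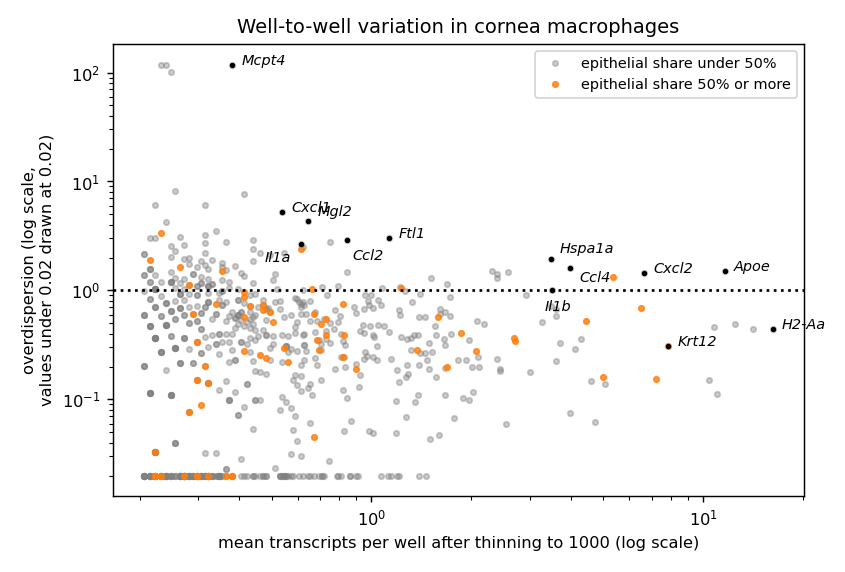
Overdispersion of 766 genes (vertical, logarithmic) against their mean transcripts per well after thinning to 1000 (horizontal, logarithmic), with genes of 50% or more epithelial share in orange and the value 1 as a dotted line. Inflammatory genes such as Cxcl1, Ccl2, Ccl4 and Cxcl2 lie above 1, and H2-Aa and Krt12 lie below it.

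Against ciliary body macrophages, cornea macrophages had more Cd207, Mmp13 and Ccl2. Transcripts were summed over the wells of a prefix, 2 sums per tissue, and compared by edgeR's quasi-likelihood test with Benjamini-Hochberg adjustment over 4705 genes, in a fit that also held the 2 microglia sums. Higher in the cornea were 117 genes (2.49%) and lower were 50 (1.06%), 3.55% in all. Of the 117 higher genes 94 had an epithelial share of 50% or more, against 381 of all 4705 genes tested, and of the 50 lower genes 1 had. The 10 largest rises were Clic3, Col17a1, Aqp5, Cldn7, Krt13, Sdc1, Psca, S100a16, Urah and Cd207, and all of them but Cd207 had shares of 68.2% or more. Col17a1, a collagen of the basal epithelial junction, had 229 CPM in P5 and 283 in P2, against 0 in P3 and 5.18 in P4.

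Cd207 had 360 CPM in P5 and 239 in P2 of the cornea, against 19.2 in P3 and 0 in P4 of the ciliary body, with an epithelial share of 0.75%. The groups did not overlap, and the log2 ratio was 5.07 ± 0.69 (SE, n = 2 sums each, edgeR adjusted p = 0.000837). The call held in 13 of 14 alternatives, and in DESeq2 the adjusted p was 0.25. Mmp13 had 306 CPM in P5 and 333 in P2, against 46.2 in P3 and 59.6 in P4, a log2 ratio of 2.50 ± 0.33 (adjusted p = 0.000617). Ccl2, the ligand of Ccr2, had 817 CPM in P5 and 756 in P2, against 181 in P3 and 93.3 in P4, a log2 ratio of 2.46 ± 0.34 (adjusted p = 0.000617). Ccl2 was called in all 16 alternatives that gave a value, and Mmp13 in 14 of 15. A single well of P2 A held 30.1% of all Mmp13 and 22.2% of all Cd207 transcripts of the cornea macrophages. The P2 sums of these genes therefore lean on that well, and no fit left it out alone. Reads of Ccl2 and Ccl12 may not be told apart.

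Other genes higher in the cornea, with epithelial shares under 5%, were the lectins Clec4n and Mgl2, the receptor Pilra, the chemokine Ccl9 and Ttr. Pilra had 165 CPM in P5 and 159 in P2, against 26.9 in P3 and 49.2 in P4, a log2 ratio of 1.97 ± 0.41 (edgeR adjusted p = 0.0113). Mgl2 had 988 CPM in P5 and 527 in P2, against 347 in P3 and 192 in P4 (adjusted p = 0.0452). Clec4n had 180 CPM in P5 and 119.1 in P2, against 11.5 in P3 and 44.0 in P4 (adjusted p = 0.0198). Ttr, which encodes transthyretin, a carrier that pigment epithelium makes in the eye, had 141 and 144 CPM in P5 and P2, against 0 and 18.1 in P3 and P4 (adjusted p = 0.00236), and 60.6% of its transcripts in cluster 2 lay in 1 well. Of the alternatives that gave a value, the call held in 8 of 13 for Clec4n, 9 of 16 for Mgl2, 7 of 16 for Ccl9, 12 of 14 for Pilra and 13 of 15 for Ttr.

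Among the 50 genes lower in cornea macrophages were H2-Oa and H2-Ob, which regulate class II molecules, and the lysosomal gene Ctsd. H2-Oa was 1 of 12 tested genes of the class II list that were lower, and Ctsd 1 of 20 of the lysosomal list. H2-Oa, a subunit of the regulator that restrains class II peptide loading, had 14.6 CPM in P5 and 24.8 in P2, against 131 in P3 and 127 in P4, a log2 ratio of -2.74 ± 0.50 (edgeR adjusted p = 0.00445). H2-Ob, its partner, was lower too, with a log2 ratio of -2.28 (adjusted p = 0.0109). Flt3, the cytokine receptor of dendritic cells, had 14.6 and 29.8 CPM in P5 and P2, against 108 and 95.8 in P3 and P4 (adjusted p = 0.0288). The lysosomal protease Ctsd had 151 CPM in P5 and 174 in P2, against 413 in P3 and 564 in P4 (adjusted p = 0.00724). Cst3, an inhibitor of cathepsins, had 3460 and 3179 CPM, against 9686 and 5937 in P3 and P4 (adjusted p = 0.0382). Of the alternatives that gave a value, the call held in 12 of 14 for H2-Oa, 10 of 15 for H2-Ob, 8 of 12 for Flt3, 15 of 16 for Ctsd and 10 of 16 for Cst3. The adhesion gene Vcam1, the integrin Itgb7, the lectins Clec10a and Klrd1, and the microglial genes Fcrls and Gpr84 were also lower. The 10 largest falls were Gcnt2, H2-Oa, Gm8797, Vcam1, Gm44121, Itgb7, Gm9844, H2-Ob, Gm42503 and Flt3.

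By list, 2 of 21 tested inflammatory genes were higher (Ccl2 and Ccl9) and 0 lower, 2 of 9 matrix genes were higher (Mmp13 and Tgfbi), and 2 of 13 dendritic and Langerhans cell genes were higher (Cd207 and Mgl2) and 1 lower (Flt3). Of 12 MHC class II genes 1 was lower (H2-Oa), of 20 lysosomal genes 1 (Ctsd), of 14 microglial genes 3 (Fcrls, Cst3 and Gpr84), and of 10 border macrophage genes 1 (Clec10a). None of 16 pan-macrophage, 12 lipid, 12 complement, 9 monocyte, 8 interferon or 10 cell cycle genes was called in either direction. The medians of these 13 lists ran from -0.94 (microglia) to 0.42 (matrix), against -0.03 over all genes tested. Of 22 immediate early and stress genes 2 were higher (Ier3 and Klf4), and of 6 genes of alternative activation 1 was higher (Mgl2) and 1 lower (Clec10a). The lists of other cell types had medians from -3.12 (1 melanocyte gene tested) to 4.27 (corneal epithelium), with 2 of 4 keratocyte genes higher (Dcn and Col1a2) and 1 of 3 T cell and NK cell genes lower (Klrd1). Of 23 tested epithelial genes 12 were higher. The lists were chosen with earlier results of these data known.

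The other markers did not pass the test. H2-Aa had 14862 CPM in P5 and 17451 in P2 of the cornea, against 23543 in P3 and 17020 in P4 (log2 ratio -0.41 ± 0.32, edgeR adjusted p = 0.616). Mrc1 had a log2 ratio of 0.77 ± 0.41 (adjusted p = 0.421), Ms4a7 one of -0.59 ± 0.30 (adjusted p = 0.391) and Ccr2 one of 0.24 ± 0.30 (adjusted p = 0.790). Cxcl2 had a log2 ratio of 1.04 ± 0.36 (adjusted p = 0.151) and Apoe one of -0.91 ± 0.33 (adjusted p = 0.168). Mmp12 had 389 CPM in P5 and 606 in P2, against 220 in P3 and 327 in P4 (adjusted p = 0.20).

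When the epithelial share was taken off the cornea sums, 8 genes were higher (0.215% of 3722) and 7 lower (0.188%), among them Cd207 (edgeR adjusted p = 0.00874), Mmp13 and Ccl2 (0.006 each) and Pilra (0.0276). Mgl2 was not called (adjusted p = 0.0745), nor H2-Oa (0.0673). Restricted to clusters 3, 7 and 8, which had at least 3 wells in every sum, 29 genes were higher (1.22% of 2378) and 5 lower (0.210%). Ccl2 was among them (adjusted p = 0.0229), with Mgl2 (log2 ratio 2.94, 0.030), Pilra (0.0371) and Mmp12 (log2 ratio 3.96, 0.0051), and Ctsd was lower (-2.74, 0.0051). Mmp12 was thus called within these clusters and not over all macrophages. Cd207 and Mmp13 gave no value there. Both settings were added after the data were seen.

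**Figure D5:**
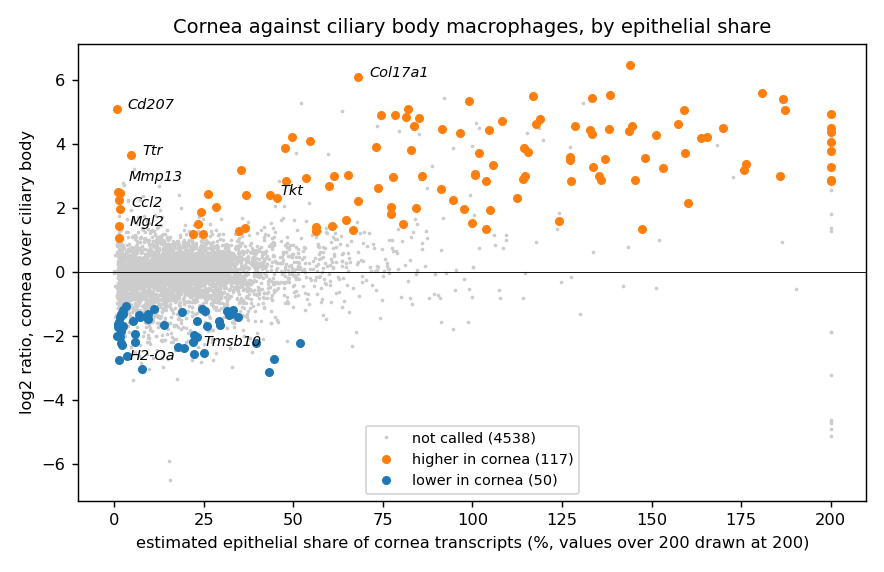
Log2 ratio of cornea over ciliary body macrophages (vertical) for 4705 genes against the estimated epithelial share of their cornea transcripts (horizontal, percent, values over 200 drawn at 200), with genes called higher in orange and lower in blue. Most higher genes lie at shares of 50% or more, while Cd207, Mmp13, Ccl2 and Mgl2 lie near 0.

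Within the cornea, the P5 and P2 libraries differed in 7 genes of 1895, all lower in P5 (0.369%), and no gene was higher by edgeR's quasi-likelihood test with Benjamini-Hochberg adjustment. At an unadjusted p under 0.05 there were 135 genes in both directions, and DESeq2 called 0 higher and 1 lower. Gm42418 had 2192 CPM in P5 A and 1840 in P5 B, against 14638 in P2 A and 8308 in P2 B (edgeR adjusted p = 0.000333). C1qa, a subunit of complement C1q, had 386 CPM in P5 A and 328 in P5 B, against 1240 in P2 A and 1029.6 in P2 B (log2 ratio -1.70 ± 0.37, adjusted p = 0.0413). Il1rn, the antagonist of the interleukin-1 receptor, had 32.2 CPM in P5 A and 53.2 in P5 B, against 429 in P2 A and 188 in P2 B (log2 ratio -2.67 ± 0.59, adjusted p = 0.0413). The library sums of the 2 prefixes did not overlap for any of these 3. That was also so for genes that were not called, such as the marker Ms4a7 (edgeR adjusted p = 0.926). With 2 libraries a prefix it therefore adds little to the calls.

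The other 4 were Ptgds, Gngt1, Gnat1 and Gm10073. Gnat1, the rod transducin subunit, had 42.9 CPM in P5 A and 8.87 in P5 B, against 214 in P2 A and 276 in P2 B (edgeR adjusted p = 0.0117). The 13 detected genes of the photoreceptor list made up 0.0364% of the transcripts in P5 and 0.208% in P2. In 4 wells they reached 1% of the transcripts. None of the 6 markers was called between the prefixes: H2-Aa had a log2 ratio of -0.19 ± 0.29 (adjusted p = 0.983), Cd207 one of 0.05 ± 0.77 (0.990) and Mmp13 one of -0.82 ± 1.14 (0.983). C1qb, which pairs with C1qa, had 3470 CPM in P5 and 3623 in P2. The count of calls rested on single libraries: without P2 B it was 41 higher and 64 lower, and without P5 B 0 higher and 1 lower. Each of these fits leaves 1 library in a prefix, which is assumed to vary like those of the other, and without P2 B that library is P2 A with 6 wells. A prefix and whatever sets it apart (plate, mouse or experiment) cannot be told apart.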

How the data were processed

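Per the labels' protocols, CD45+ cells were sorted into 384-well plates and sequenced by mCEL-Seq2. Reads were aligned with BWA 0.6.2-r126, per the submitters' processing notes, while build, annotation and the counting of shared reads were not given in the sources used here. Genes with near copies (MHC, Ms4a, Ccl2 and Ccl12, mast cell proteases, Gm-named genes) are therefore uncertain. The deposited values are the authors' estimated counts of transcripts in each well, derived from molecular identifiers without normalization. Of other values, the deposited annotation holds a named type and a cluster number per well. The unnormalized eye table carries no gene names: its 19705 rows that are not all 0 were named by exact match to the named library tables, and all 429 annotated wells were found in their libraries, while the values of 10 also fitted within a well of the other library of the prefix. Some of these library assignments rest on that match alone. Mitochondrial shares come from the library tables, since the eye table holds no mitochondrial gene.

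Doublets were not called, because the sort was meant to put 1 cell in each well. Whether any well held more than 1 cell was not tested. Counts were summed per gene over the wells of a prefix or library, rounded and tested with edgeR 4.0.16 in R 4.3.3 (filterByExpr, TMM, robust quasi-likelihood fit, threshold 0.05 on the Benjamini-Hochberg adjusted p). DESeq2 1.42.0 was an alternative. The labels do not say that libraries are separate animals, so p-values may measure technical spread. Intervals are Wilson 95% intervals and cover counting error only. Overdispersion was computed after thinning to 1000 transcripts. Tests were checked on simulated data. Named genes are the 6 markers, the 20 highest and 20 most variable genes, the 10 leading genes of a cluster (200 CPM or more, pseudocount 20), the 10 largest rises and falls at 50 CPM or more, and up to 4 genes of each list. Results of some genes are not reported here. The members and lists were chosen with earlier results of these data known, and a few genes named beside them (in the co-detection and by mean level) after values were seen. Clusters under 10 wells are described for their leading genes outside the rule. Alternatives changed the scaling, filter, test, wells, depth, genes, samples in the fit and replicates.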

Additional observations from a re-analysis of the deposited data

Results flagged for a closer look

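Levels of 25 genes in the 4 cornea libraries were each searched for a library far from the other 3 (gap to the nearest over range above Dixon's 95% critical value), which chance gives in about 1 of 20 genes, and 2 were found, both in P2 A, the library of 6 macrophages. Tmsb4x, an actin-binding peptide gene, had 9584 CPM in P2 A, against 11559 to 11614 CPM in the other 3 libraries. H2-Ab1, a class II beta chain, had 8066 CPM in P2 A, against 10636 to 11105 CPM in the others. The number of wells moved with both values, and its part in them was not tested.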

How the results depend on the processing

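No paired analysis was possible because the replicate numbers are accession order, and the prefixes of the cornea (P5, P2) and ciliary body (P3, P4) libraries are not shared. Between cornea and ciliary body, 117 genes were higher and 50 lower. The counts were 191 and 117 with no filter on low counts, 48 and 7 in DESeq2, and 41 and 15 with sums thinned to the smallest. They were 29 and 5 in clusters 3, 7 and 8, and 8 and 7 with the epithelial share taken off. They were 150 and 87 with the 2 macrophage groups alone, and 96 and 104 with sums per library. Leaving out each pair gave 89 to 151 higher, and 15 (without P3), 22 (without cornea P5), 159 (without cornea P2) and 169 (without P4) lower. Without wells of 1% or more epithelial transcripts, which left 3 cornea wells, 2 genes were higher, and Tgfbi (-1.37), Cxcl2 (-2.35, adjusted p = 0.0014) and Ier3 (a log2 ratio of -2.15) turned round. The cause was not tested, except that 3 wells remained.

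Between P5 and P2, 0 genes were higher and 7 lower. With no filter 5 were higher, and with wells of at least 1000 transcripts and at most 25% mitochondrial 1 was. DESeq2 called 1 lower. Leaving out each library gave 0 to 41 higher and 1 to 64 lower: 6 and 17 without P2 A, 41 and 64 without P2 B, 4 and 9 without P5 A, 0 and 1 without P5 B. Other values of named genes kept their direction and side of the threshold in 1268 cases for the tissues (58 gained and 121 lost the call) and in 643 for the prefixes (25 gained, 17 lost). Leaving out the 2 wells of 10% or more mast cell transcripts, added after the data were seen like the clusters and the epithelial share, gave 116 and 48, and 0 and 8.

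Genes with an overdispersion of 1 or more numbered 124, but 71 after thinning to 500 transcripts and 312 after 2000. Of the 20 most variable genes, 6 were shared at 500, 2 at 2000, 7 in P2 alone, 11 in P5 alone and 6 with the variance to mean ratio. Shares of wells moved without thinning, to 42.1% for Mrc1, 41.3% for Ms4a7, 36.4% for Ccr2, 97.5% for H2-Aa and 23.1% for Mmp13, so depth limits every share. Not run were clusters of at least 5 wells in each pair (0 qualified), mitochondrial genes left out (none in the table), and the epithelial well limit for the prefixes and the variation, where 3 wells remained.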
